A study of Mus musculus with 6 samples.

Results

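Expression of 7 genes that mark mesothelium was followed in primary oviductal muscle cells of WT and Pbrm1 conditional knockout (cKO) mice. The genes were Msln, Upk3b, Upk1b, Lrrn4, Wt1, Krt19 and Gpm6a. They were taken by symbol from a table of read counts for 54232 genes, and all 7 were found and passed the filter on low counts. The markers did not move alike. In Pbrm1 cKO cells Msln and Upk1b were at 56.4% and 55.3% of their WT means and Lrrn4 at 77.0%, whereas Krt19 was at 172.5%, and Upk3b, Wt1 and Gpm6a did not pass the test.

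The cells came from the oviducts of mice of 8 to 12 weeks on day 2 of pregnancy, after mating with a stud male. The 3 WT libraries are controls as the labels name them, although a legend in the study's supplement names floxed Pbrm1 fl/fl mice for this experiment. The 3 Pbrm1 cKO libraries came, per the methods of the study, from Pbrm1 fl/fl mice that carried PR IRES-cre/+, a cre at the progesterone receptor locus that acts only in cells that express this receptor or descend from such cells. Oviducts were digested with trypsin, collagenase and dispase, and the filtered cells were plated for 4 h and given new medium for 2 h before RNA was taken. The supplement calls the 3 libraries of a group biological replicates. The labels name neither a strain nor the number of animals behind a library, and the methods of the study give the line that carried the cre.

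Mesothelium is the flat layer of cells of mesodermal origin that lines the body cavities and covers the organs in them, the outer muscle of the oviduct included. It combines traits of an epithelium, such as keratins and an apical surface with microvilli, with those of mesenchyme, and makes a slippery surface coat. Its markers are not equally exclusive: Wt1 is also expressed by mesenchymal cells of the reproductive tract, and Krt19 by the epithelium that lines the oviduct.

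Pbrm1, a part of a chromatin remodeler of the SWI/SNF family, was at 170, 183 and 172 CPM (read counts scaled to a common total by TMM normalization) across WT libraries and at 43.5, 50.7 and 42.7 CPM across Pbrm1 cKO libraries (log2 fold change -1.94, edgeR adjusted p = 9.13e-11). All 6 libraries thus matched their labels, although Pbrm1 RNA in the Pbrm1 cKO libraries was still at 26.0% of the WT mean. Which cells held it was not tested. The libraries held between 15390818 and 18947947 counts, and the markers between 259 and 4060 counts in a library. The smooth muscle genes Tagln and Acta2 were, per kb of exon, the most abundant of the listed smooth muscle genes in both groups. The RNA was from all plated cells in bulk, and in such samples fewer cells of a type and less RNA per cell cannot be told apart.

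Of the 7 markers, 4 differed between Pbrm1 cKO and WT cells at an edgeR adjusted p-value under 0.05, where 43.7% of all 15376 tested genes did. Lower expression was called for 3 of the 7, against 21.8% of tested genes, and higher expression for 1, against 21.9%. The same 4 markers were those whose values in the groups did not overlap, which was the case for 53.5% of tested genes (26.9% lower and 26.6% higher). The median log2 fold change over the 7 markers was -0.04, next to 0.002 over all tested genes. With this many genes called, the count of 4 is near the background, and what the 7 show is the size and the direction of each.

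Msln (ENSMUSG00000063011.6, GRCm38 chromosome 17, 25748614 to 25754327, minus strand) encodes mesothelin, a surface glycoprotein held to the membrane by a lipid anchor. It was at 52.8, 55.7 and 55.5 CPM in WT replicates 1, 2 and 3 and at 30.9, 31.5 and 30.2 CPM in Pbrm1 cKO replicates 1, 2 and 3. Every Pbrm1 cKO library lay well below every WT library, and the libraries within a group were close to each other. Msln fell from 54.6 ± 1.62 to 30.8 ± 0.643 CPM (SD, n = 3), a log2 fold change of -0.82 (SE 0.057, edgeR adjusted p = 1.28e-07). Among tested genes, 9.15% changed by more.

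Upk1b (ENSMUSG00000049436.5, chromosome 16, 38773184 to 38800328, minus strand) encodes uroplakin 1B, a membrane protein of the tetraspanin family first known from the surface plaques of the bladder. It was at 47.4, 43.9 and 48.8 CPM across WT libraries and at 24.1, 24.4 and 29.0 CPM across Pbrm1 cKO libraries. The groups were again far apart, with Pbrm1 cKO replicate 3 the highest of its group. Upk1b fell from 46.7 ± 2.48 to 25.8 ± 2.72 CPM (SD, n = 3), a log2 change of -0.86 (SE 0.077, edgeR adjusted p = 1.21e-06).

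Lrrn4 (ENSMUSG00000043110.2, chromosome 2, 132868305 to 132880891, minus strand) encodes a membrane protein with leucine-rich repeats. It was at 28.0, 25.3 and 24.8 CPM across WT libraries and at 20.75, 21.1 and 18.4 CPM across Pbrm1 cKO libraries. The lowest WT library was above the highest Pbrm1 cKO library by a smaller margin than for Msln or Upk1b. Lrrn4 fell from 26.1 ± 1.71 to 20.1 ± 1.45 CPM (SD, n = 3), with a log2 fold change of -0.37 (SE 0.079, edgeR adjusted p = 0.00181). A change of that size was common, as 29.7% of tested genes changed by more.

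Krt19 (ENSMUSG00000020911.14, chromosome 11, 100140810 to 100148665, minus strand) encodes a keratin of simple epithelia and was the marker that went the other way. It was at 120.1, 126.4 and 128.4 CPM across WT libraries and at 228.3, 197.5 and 220.9 CPM across Pbrm1 cKO libraries. The groups did not overlap, and Pbrm1 cKO replicate 2 was the lowest of its group. Krt19 rose from 125 ± 4.34 to 216 ± 16.1 CPM (SD, n = 3), a log2 change of 0.79 (SE 0.056, edgeR adjusted p = 1.83e-07). In the same libraries the epithelial adhesion gene Epcam was at 28.3, 31.1 and 33.4 CPM in WT and at 67.5, 55.4 and 73.0 CPM in Pbrm1 cKO cells. The part of epithelial cells in the Krt19 result was not tested.

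**Figure D1:**
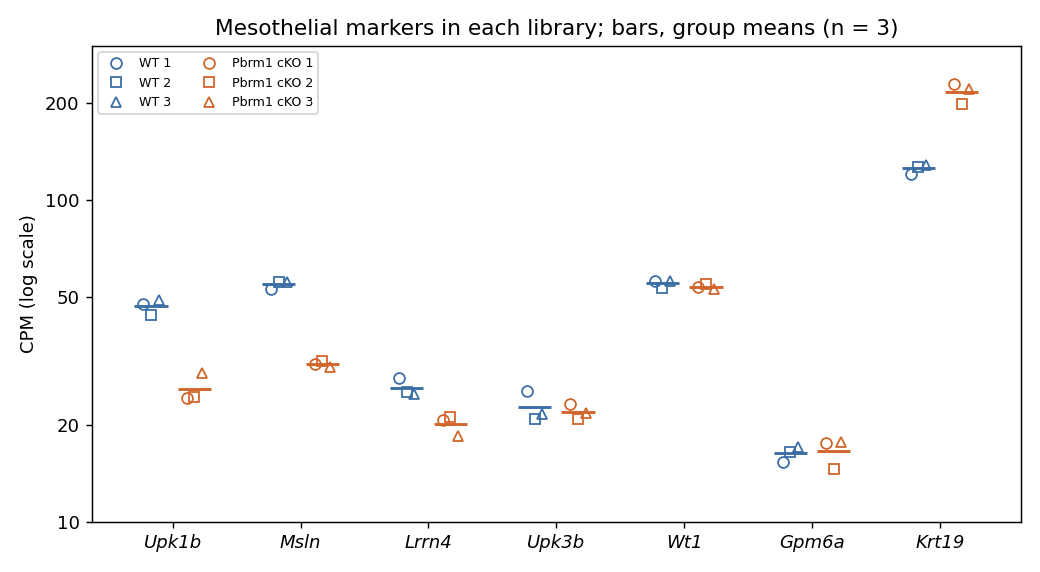
CPM (log scale) of the 7 mesothelial markers, ordered by log2 fold change, in each of the 3 WT (blue) and 3 Pbrm1 cKO (orange) libraries; symbols mark the replicate number and bars the group means. The groups are apart for Upk1b, Msln and Lrrn4, which were lower in Pbrm1 cKO, and for Krt19, which was higher at 197.5 to 228.3 CPM, and they overlap for Upk3b, Wt1 and Gpm6a.

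Wt1 (ENSMUSG00000016458.14, chromosome 2, 105126529 to 105173616, plus strand), the zinc finger transcription factor of mesothelium and of the developing gonad and kidney, was at 55.7, 53.2 and 56.0 CPM across WT libraries and at 53.7, 54.6 and 52.7 CPM across Pbrm1 cKO libraries. The groups overlapped, at means of 55.0 ± 1.53 and 53.7 ± 0.948 CPM (SD, n = 3). The log2 fold change was -0.03, with a 95% confidence interval from -0.15 to 0.08 (edgeR adjusted p = 0.636). That interval does not hold the change of Msln, Upk1b, Lrrn4 or Krt19.

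Upk3b (ENSMUSG00000042985.7, chromosome 5, 136038496 to 136046487, plus strand), which encodes a uroplakin that pairs with uroplakin 1B, was at 25.4, 20.9 and 21.5 CPM across WT libraries and at 23.2, 20.9 and 21.7 CPM across Pbrm1 cKO libraries. WT replicate 1 was the highest of the 6 and the others were close together. The means were 22.6 ± 2.44 and 21.9 ± 1.15 CPM (SD, n = 3), with a log2 fold change of -0.04 (95% confidence interval -0.23 to 0.14, edgeR adjusted p = 0.712). The log2 ratio of Upk3b to its partner Upk1b within a library changed by 0.82 between the groups, which did not overlap (exact permutation p = 0.1, the smallest possible).

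Gpm6a (ENSMUSG00000031517.8, chromosome 8, 54954843 to 55060871, plus strand), which encodes a membrane glycoprotein that is abundant in neurons, was at 15.3, 16.5 and 17.1 CPM across WT libraries and at 17.5, 14.5 and 17.7 CPM across Pbrm1 cKO libraries. The groups overlapped, with means of 16.3 ± 0.909 and 16.6 ± 1.78 CPM (SD, n = 3). The log2 fold change was 0.02 (95% confidence interval -0.18 to 0.22, edgeR adjusted p = 0.87). The interval was the widest of the 7 markers, at the lowest CPM.

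**Figure D2:**
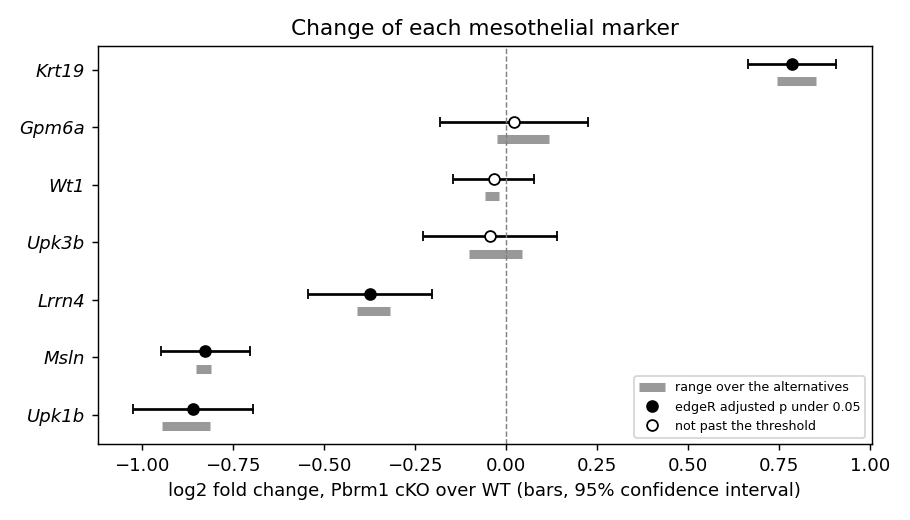
Log2 fold change, Pbrm1 cKO over WT, of each mesothelial marker from edgeR with its 95% confidence interval; filled points passed the adjusted p threshold of 0.05, and grey bars give the range over 13 other settings of the analysis. The intervals of Msln (-0.95 to -0.70) and Upk1b (-1.02 to -0.69) overlap each other, that of Lrrn4 (-0.54 to -0.20) lies nearer to 0, and those of Wt1, Upk3b and Gpm6a include 0.

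The 250 bases before the transcription start are shown for Lrrn4, which was called, and for Upk3b, which was not, because these are the 2 markers with 1 start site each in the RefSeq promoter table (GRCm38.p6). Both are written 5′ to 3′ in the direction of the gene, Lrrn4 from chr2:132880863-132881112 on the minus strand, where the annotated gene starts slightly further upstream than in RefSeq, and Upk3b from chr5:136038246-136038495 on the plus strand. Capitals mark GGAATG or its reverse complement CATTCC, the core of the motif of TEAD transcription factors.
Lrrn4: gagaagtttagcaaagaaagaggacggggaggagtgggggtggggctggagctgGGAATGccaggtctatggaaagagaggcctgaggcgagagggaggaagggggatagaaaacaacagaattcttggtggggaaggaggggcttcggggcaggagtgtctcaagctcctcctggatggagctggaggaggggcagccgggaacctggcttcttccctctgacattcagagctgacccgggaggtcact
Upk3b: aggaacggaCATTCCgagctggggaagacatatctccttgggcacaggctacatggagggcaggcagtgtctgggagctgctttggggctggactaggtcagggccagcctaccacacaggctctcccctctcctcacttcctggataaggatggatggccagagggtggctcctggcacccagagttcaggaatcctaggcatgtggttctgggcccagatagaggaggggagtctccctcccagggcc
Each window held this motif once, forward before Lrrn4 and in reverse before Upk3b, and 12.6% of 32851 promoter windows of the same length held it at least once on either strand. Neither window held GCGTGGG, letters shared by the motifs of WT1 and EGR factors and present in 4.3% of windows, nor CCAAT (33.8%) or TATAAA (12.4%). The G and C content was 59.2% before Lrrn4 and 60.8% before Upk3b. For Gpm6a the table gave 2 start sites, one 115 bases before the start of the counted gene and one 175409 bases before it, and exons before the start of the counted gene were not in the counts.

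Whether markers moved alike was tested on the ratio of each pair within a library, which does not depend on how libraries are scaled. Of the 21 pairs, 17 (81%) had log2 ratios that did not overlap between the groups, where this was so for 51.4% of all pairs of tested genes. The pairs share the same 7 markers and are not independent. As 4 of the markers were already apart between the groups by themselves, the share of pairs largely restates those single results. In an exact two-sided permutation test over the 6 libraries each of these 17 reached p = 0.1, the smallest that 3 libraries against 3 allow, and p = 0.124 after adjustment over the 21 pairs, so that no pair could pass 0.05. The 4 pairs that overlapped were Msln with Upk1b and the pairs among Upk3b, Wt1 and Gpm6a, while Lrrn4 and Krt19 did not overlap in their ratio to any other marker.

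The log2 ratio of Msln to Upk1b was 0.23 ± 0.099 in WT and 0.26 ± 0.18 in Pbrm1 cKO cells (SD, n = 3), a difference of 0.03 (exact permutation p = 0.8). Among the markers that were not called, the ratio of Upk3b to Wt1 differed by -0.01 (exact permutation p = 0.9). The ratio of Msln to Wt1 was -0.01 ± 0.072 in WT and -0.80 ± 0.0046 in Pbrm1 cKO cells (SD, n = 3). The SD in Pbrm1 cKO cells is below what counting alone would give, at 4.32% for Msln and 3.27% for Wt1. It is therefore no measure of how constant the ratio is. The ratio of Msln to Wt1 CPM does not account for exon length, so that only its change between groups is read. As CPM per kb of exon Msln was above Wt1 in both groups. The means were 25.8 and 8.87 in WT cells, and 14.6 and 8.66 in Pbrm1 cKO cells.

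Lrrn4 took a middle place. Its log2 ratio to Wt1 changed by -0.34, while that of Msln to Lrrn4 changed by -0.45 and that of Upk1b to Lrrn4 by -0.48, all without overlap of the groups. The largest shifts were those against Krt19, at -1.64 for Upk1b, -1.61 for Msln and -1.16 for Lrrn4. Even against the markers that were not called, Krt19 moved, by 0.76 over Gpm6a.

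**Figure D3:**
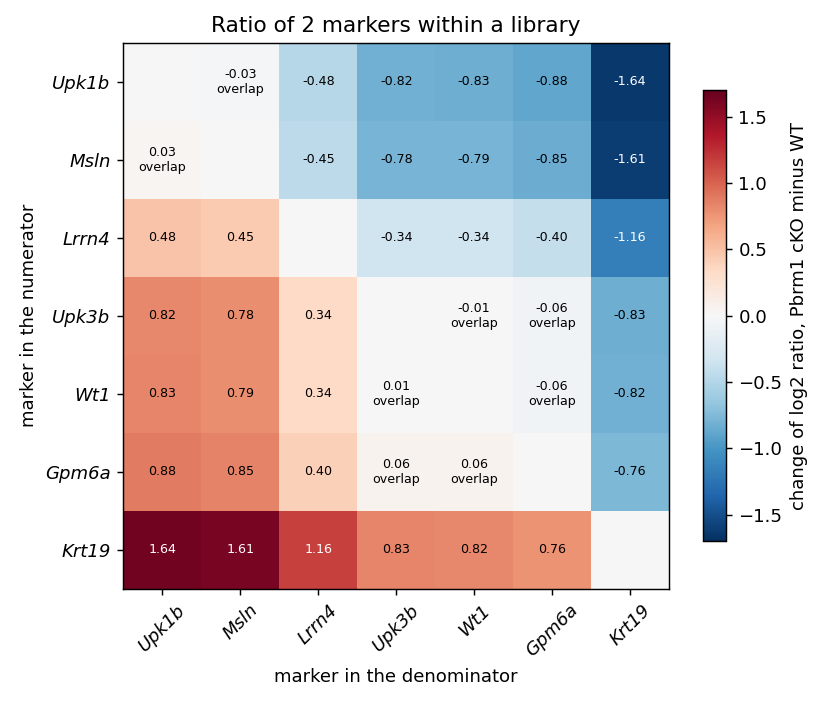
Change of the within-library log2 ratio of each pair of markers, Pbrm1 cKO minus WT, with the numerator in rows and the denominator in columns; the word overlap marks the pairs whose groups overlap. Overlap is seen for 4 pairs, Msln with Upk1b (0.03) and the pairs among Upk3b, Wt1 and Gpm6a, and the strongest colours are those of Krt19 with Upk1b and Msln.

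The deviation of each marker from its group mean was also read library by library. Relative to its group mean, WT replicate 1 was high for Upk3b (12.3%) and Lrrn4 (7.49%) and low for Gpm6a (-6.04%) and Krt19 (-3.90%). Pbrm1 cKO replicate 2 was low for Gpm6a (-12.4%) and Krt19 (-8.40%), and Pbrm1 cKO replicate 3 was high for Upk1b (12.2%) and low for Lrrn4 (-8.32%). No library was high or low for all 7 markers, and the number above the group mean was from 3 to 6 of 7. As a description, the 7 markers did not all share 1 direction within a library beyond the difference between the groups. Deviations from a mean of 3 libraries sum to 0 for each marker, and some are no larger than counting error. Mixed signs therefore cannot decide whether the markers vary together. Krt19 and Gpm6a did deviate in the same direction in every library. Their log2 ratio had an SD of 0.032 in WT and 0.061 in Pbrm1 cKO cells (n = 3). This pair was picked from 21 after the values were seen, and whether the 2 genes vary together was not tested.

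Part of this scatter was of the size that counting alone gives. For Msln the coefficient of variation between replicates was 2.97% in WT and 2.08% in Pbrm1 cKO cells, where the counts alone would give 3.23% and 4.32%. Wt1 was as tight, at 2.79% and 1.77%. Krt19, the marker with the most counts, varied by 7.48% between Pbrm1 cKO libraries where counting would give 1.64%, and Upk3b by 10.8% between WT libraries where it would give 5.02%.

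A summed mesothelial level hid these differences. The 7 markers together were at 344.7, 341.9 and 352.1 CPM across WT libraries and at 398.5, 364.3 and 390.5 CPM across Pbrm1 cKO libraries, so that the sum was 111% of WT. Krt19 alone made up 36.1% of that sum in WT and 56.0% in Pbrm1 cKO cells. Without Krt19 the sum turned the other way, from 221 ± 5.01 CPM in WT to 169 ± 1.75 CPM in Pbrm1 cKO cells (SD, n = 3), or 76.3% of WT. The 3 markers that fell were together at 60.2% of WT, and the 3 that were not called at 98.2%. Markers were sorted into these sums by their calls in the same libraries, so that both percentages restate the calls.

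Levels of different genes were compared as CPM per kb of exon. In WT cells the order was Krt19 (67.4 ± 2.34), Msln (25.8 ± 0.768), Upk1b (22.4 ± 1.19), Wt1 (8.87 ± 0.248), Lrrn4 (7.01 ± 0.460), Upk3b (6.41 ± 0.690) and Gpm6a (5.07 ± 0.283; SD, n = 3). Lrrn4 and Upk3b overlapped between libraries, and all other neighbours in this order were apart. In Pbrm1 cKO cells Krt19 was at 116 ± 8.69, Msln at 14.6 ± 0.304 and Upk1b at 12.4 ± 1.30 CPM per kb (SD, n = 3). Upk3b (5.92 to 6.56) then lay above Lrrn4 (4.95 to 5.67), which overlapped Gpm6a (4.52 to 5.50).

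**Figure D4:**
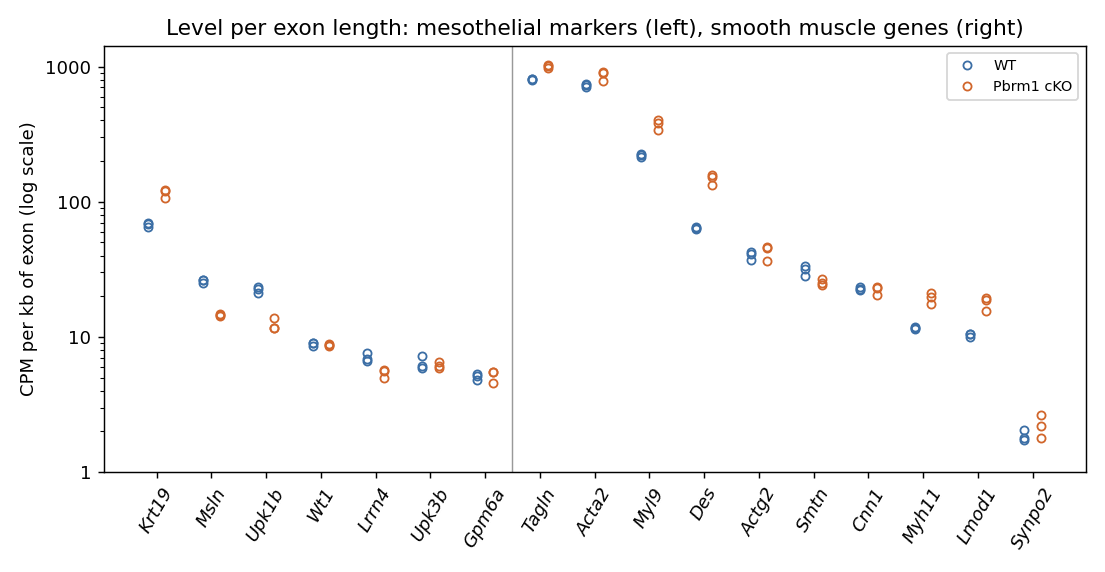
CPM per kb of exon (log scale) of the 7 mesothelial markers (left of the line) and of 10 smooth muscle genes (right of the line), each point a library. Tagln (804 in WT, 1006 in Pbrm1 cKO) and Acta2 (722 and 862) are far above all mesothelial markers, and the actin-binding protein Synpo2 (1.85 and 2.21) is below them.

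Relatives and binding partners of the markers were read beside them. Of 18 listed genes, 15 were tested, of which 6 were higher and 4 lower in Pbrm1 cKO cells, next to 21.9% higher and 21.8% lower among all tested genes, with a median log2 fold change of 0.17. Muc16, the mucin that binds mesothelin, was at 6.03, 5.61 and 4.57 CPM across WT libraries and at 2.59, 2.33 and 1.54 CPM across Pbrm1 cKO libraries, so that it fell with Msln (log2 fold change -1.31, edgeR adjusted p = 9.90e-05), on 24 to 105 counts in a library. Mslnl, the neighbour of Msln on the other strand, 283 bases away, had 3 to 5 counts in a library and was not tested.

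Among the uroplakins, Upk2 and Upk3a had 0 counts in all 6 libraries, which allows up to 0.193 CPM in the shallowest. Upk3bl, the neighbour of Upk3b, 8004 bases downstream on the same strand, fell from 10 to 19 counts in the WT libraries to 2 or 3 in the Pbrm1 cKO libraries (edgeR adjusted p = 0.00102), whereas Upk3b itself was not called. Upk1a rose from 0.625 to 1.22 CPM (log2 fold change 0.96, edgeR adjusted p = 0.0172). That call was lost with DESeq2 (adjusted p = 0.0901) and without WT replicate 1, WT replicate 2 or Pbrm1 cKO replicate 2 (edgeR adjusted p from 0.0507 to 0.0767).

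Keratins were read beside Krt19. Krt8 and Krt18, the usual partners of simple epithelia, rose only slightly, with log2 fold changes of 0.18 and 0.17 (edgeR adjusted p = 0.0144 and 0.0157). Both calls were lost without WT replicate 1, Krt8 also without Pbrm1 cKO replicate 3 and Krt18 without Pbrm1 cKO replicate 1 (edgeR adjusted p from 0.0664 to 0.0868). Krt7, at 170 ± 8.77 CPM in WT and 156 ± 9.07 CPM in Pbrm1 cKO cells (SD, n = 3), was not called (log2 fold change -0.12, 95% confidence interval -0.24 to -0.004, edgeR adjusted p = 0.087), but passed the threshold without Pbrm1 cKO replicate 3 (edgeR adjusted p = 0.0317) and in a model with the replicate number as its block (edgeR adjusted p = 0.0448). Krt20 fell to 55.8% of WT (log2 fold change -0.84, edgeR adjusted p = 4.01e-05). The keratin closest to Krt19 in sequence was Krt17, with 78.0% identity over 961 of 1576 bases, and reads that fit both places were left out of the counts.

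Gpm6b was at 103 ± 1.11 CPM in WT and rose to 189 ± 33.2 CPM in Pbrm1 cKO cells (SD, n = 3; log2 fold change 0.88, edgeR adjusted p = 7.60e-06), while Gpm6a was not called. Gpm6a shared 75.2% identity with Gpm6b over only 214 bases. Of the Lrrn family, Lrrn4cl, which is named for its likeness to Lrrn4, rose from 5.13 to 10.5 CPM (log2 fold change 1.03, edgeR adjusted p = 8.61e-06) and Lrrn2 by 0.62 on the log2 scale (edgeR adjusted p = 0.0099). Lrrn1 was lower (log2 fold change -0.61, edgeR adjusted p = 0.0471), a call lost under 6 of 13 other settings. Leaving out WT replicate 2, WT replicate 3, Pbrm1 cKO replicate 1 or Pbrm1 cKO replicate 2 lost it (edgeR adjusted p from 0.126 to 0.16), as did scaling by library size only and DESeq2.

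Beside Wt1 lies Wt1os, which starts 18 bases from the start of Wt1 and runs the other way, and which was counted by strand. Its log2 fold change was 0.46 (95% confidence interval 0.03 to 0.89, edgeR adjusted p = 0.0761) on 32 to 61 counts in a library. The WT1-binding proteins Wtip (-0.15) and Wtap (0.02) were not called either, Wtip passing the threshold without Pbrm1 cKO replicate 2 (edgeR adjusted p = 0.0409).

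A wider list of 20 genes used for mesothelium was called in both directions. Of the 17 tested, 5 were higher and 5 lower, or 58.8% called next to 43.7% of all tested genes, with a median log2 fold change of 0.04. Aldh1a2, which makes retinoic acid, was at 89.1, 89.4 and 93.2 CPM across WT libraries and at 39.3, 38.7 and 40.2 CPM across Pbrm1 cKO libraries (log2 fold change -1.20, edgeR adjusted p = 1.15e-09). Bnc1, the zinc finger protein basonuclin 1, was at 52.7, 52.2 and 53.8 CPM in WT and at 28.1, 28.9 and 28.2 CPM in Pbrm1 cKO cells (log2 fold change -0.90, edgeR adjusted p = 4.72e-08). For both, the groups were far apart and the replicates close. Also lower were Muc16, the transcription factor Gata4 (log2 fold change -0.72, edgeR adjusted p = 2.27e-04) and Rspo1 (-0.43, edgeR adjusted p = 0.0082), which strengthens Wnt signaling.

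The genes of that list that rose were Tcf21 (0.79), a transcription factor of mesenchyme, the claudin Cldn15 (0.76), the surface glycoprotein Pdpn (0.56) and the keratins Krt8 and Krt18 named above. Tcf21 went from 14.1 ± 0.306 to 24.4 ± 1.40 CPM, and Pdpn from 345 ± 5.49 to 507 ± 38.7 CPM (SD, n = 3; edgeR adjusted p = 3.10e-06 and 2.19e-06). Log2 fold changes of the 7 that were not called lay between -0.24 for Tbx18 and 0.47 for Osr1. Osr1 passed the threshold without WT replicate 2 (edgeR adjusted p = 0.0438) or without Pbrm1 cKO replicate 3 (0.0394). Calb2 and Slurp1 had 0 counts in all 6 libraries, and Lgr5 had 1 to 11 and was not tested. Summed over the 20 genes, WT libraries were at 1520 to 1593 CPM and Pbrm1 cKO libraries at 1679 to 1757 CPM. That sum was weighted to its most abundant genes, which rose: Pdpn, Krt8 (306 to 346 CPM) and Krt18 (285 to 321 CPM). It does not show a rise of the list as a whole, in which 5 genes were called higher and 5 lower.

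**Figure D5:**
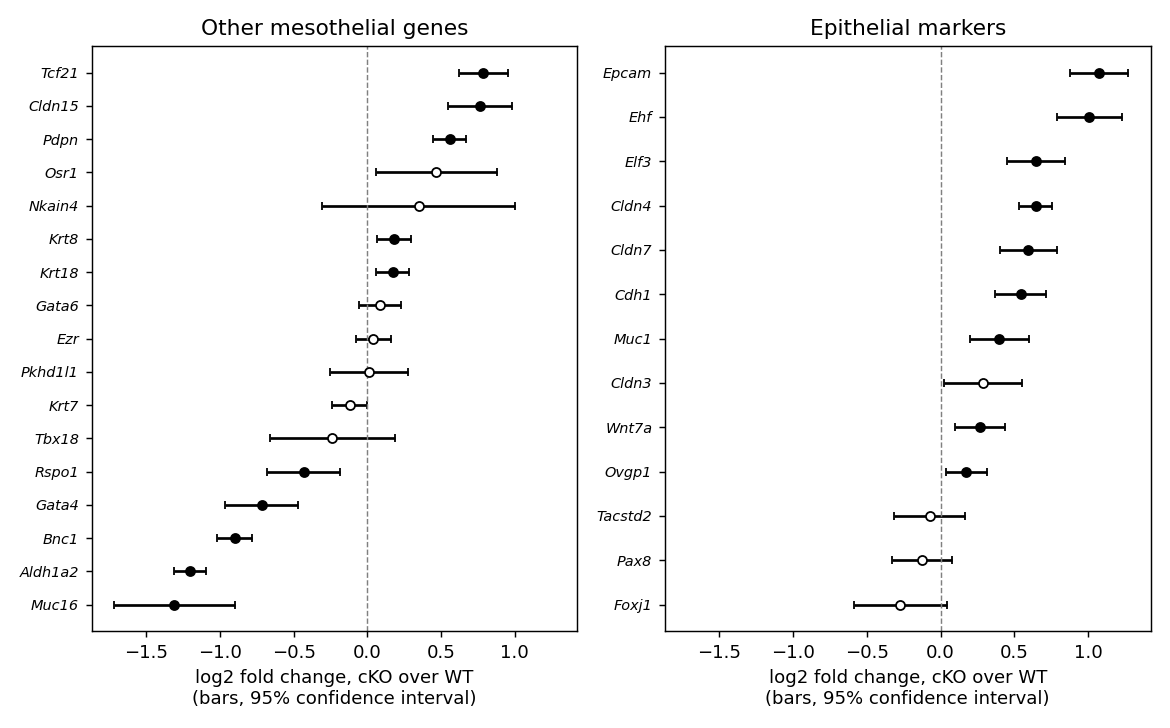
Log2 fold change, Pbrm1 cKO over WT, with 95% confidence intervals from edgeR for the 17 tested genes of the wider mesothelial list (left) and the 13 tested epithelial markers (right); filled points passed the adjusted p threshold of 0.05. The mesothelial list has 5 filled points on each side of 0, and the epithelial list has 9, all to the right.

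Epithelial genes were read because the epithelium that lines the oviduct also expresses Krt19. Of 13 tested, 9 were higher and 0 lower (69.2% called, next to 43.7% of all tested genes), with a median log2 fold change of 0.40. At an unadjusted edgeR p-value under 0.05 the count lower was also 0, and DESeq2 called 7 higher and 0 lower. Their summed level was 358 to 405 CPM in WT and 506 to 552 CPM in Pbrm1 cKO libraries, and none of the 13 was at 0 in any library. Epcam rose by 1.07 on the log2 scale (edgeR adjusted p = 9.23e-07), the transcription factor Ehf by 1.01 and the claudin Cldn4 by 0.64 (edgeR adjusted p = 4.32e-07), the latter from 71.6, 72.4 and 74.8 to 113.9, 108.2 and 120.1 CPM. Pax8, the factor of secretory cells, and Foxj1, the factor of ciliated cells, were not called (log2 fold changes -0.12 and -0.27).

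Markers of other cells that could be present are read against the 21.9% of all tested genes called higher and the 21.8% called lower. Of 10 tested fibroblast markers 7 were higher and 1 lower (median log2 fold change 0.70, sums of 5105 to 5822 CPM in WT and 7093 to 7573 CPM in Pbrm1 cKO libraries). All 8 tested leukocyte markers were higher (median 0.67, sums of 675 to 724 and 958 to 1037 CPM), and of 10 smooth muscle genes 6 were higher and 1 lower (median 0.29, sums of 3743 to 3825 and 4666 to 5233 CPM). The endothelial list had 2 higher and 1 lower of 10 (median -0.03, sums of 373 to 396 and 317 to 329 CPM). The gene called lower, Kdr, was the most abundant of that list in WT and went from 182 to 99.4 CPM, which weighs on the sum. None of the tested markers of these lists was at 0. What the share of these cells has to do with the fall of Msln, Upk1b and Lrrn4 was not tested.

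The genes whose pattern over the 6 libraries was closest to each marker were found by the root mean square difference of log2 CPM centred on the mean, among 12608 protein-coding genes, and are given as a description. For Krt19 the closest was Cldn15 (0.0258), at 7.74, 8.34 and 8.55 CPM in WT and 14.6, 12.6 and 14.7 CPM in Pbrm1 cKO libraries, followed by Vamp5 (0.0263). For Msln they were Gfod1 (0.0292) and the keratin Krt17 (0.0429), which went from 18.4 to 10.8 CPM. Upk1b was followed most closely by Alad (0.0190) and Anln (0.0513), and Lrrn4 by Taf1c (0.0184) and Naa40 (0.0255). Wt1, with Orai3 (0.00888) and Golga7 (0.0107), had the smallest differences of all 7. The measure is not scaled to the spread of a gene, so that genes that hardly change are close to each other. The centred values of Wt1 lay only between -0.0432 and 0.0437, and its small differences reflect this lack of change rather than a shared pattern. Upk3b was nearest to Pemt (0.0310) and Mrrf (0.0324), and Gpm6a to Ccdc149 (0.0298) and Cyb561 (0.0310). Between markers, the same measure was 0.0914 for Upk3b and Wt1, neither of which was called. It was 0.117 for Msln and Upk1b, and 0.827 for Upk1b and Krt19.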

How the data were processed

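The 7 markers were selected by symbol, and both they and the comparison lists (other mesothelial genes, relatives and partners of the markers, epithelial, smooth muscle, fibroblast, endothelial and leukocyte genes) were chosen with earlier results of these data known. By rule, the text names the 7 markers, Pbrm1, tested members of the first 2 comparison lists, up to 3 called members of the others by size of change, members needed to state a count and, for each marker, the 2 protein-coding genes nearest in pattern (mean of at least 1 CPM). In the list of relatives and partners, 1 gene is not reported here. Outside the rule, Cldn4, Pax8, Foxj1, Tagln, Acta2, Synpo2 and untested genes with few or no counts were named after their values were seen.

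The authors deposited raw counts of reads for each gene, all libraries in 1 table. Libraries kept the strand, were primed by random and poly(T) primers and had selected transcripts depleted. Cutadapt, HISAT2 and GRCm38.p5 are given in the submitters' processing notes, and per the file headers featureCounts 1.6.4 (reverse strand, GENCODE M18) gave the counts over exons, with reads that map to several places or genes left out. Symbols were found for 54079 of 54232 genes (99.7%).

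Library totals were 15390818 to 18947947 counts, and 3 counts, taken as the floor, were 0.159 to 0.193 CPM, which covers counting error only. Same-group libraries differed by more than sampling noise (chi-square per gene 1.31 to 1.60), and all 6 were used. CPM and fold changes were computed with edgeR 4.0.16 in R 4.3.3 (TMM, filterByExpr, quasi-likelihood F-test, two-sided), with Benjamini-Hochberg adjustment over 15376 genes and a threshold of 0.05. P-values set the difference between the groups against the spread between these libraries, and the labels do not give the number of animals behind a library. Confidence intervals are 95%. Alternatives were DESeq2 1.42.0, limma-voom (limma 3.58.1), 2 other scalings, 2 other filters, a block for the replicate number and fits that left out each library. Copies were searched with BLAST 2.17.0. The block was not part of the model, since same-numbered libraries did not deviate together.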

Additional observations from a re-analysis of the deposited data

How the results depend on the processing

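Across 13 alternatives Msln, Upk1b, Lrrn4, Krt19 and Pbrm1 kept their direction and their call, with log2 fold changes of -0.85 to -0.81, -0.95 to -0.81, -0.41 to -0.32, 0.74 to 0.85 and -2.02 to -1.89, and adjusted p-values for Lrrn4 of 5.11e-05 to 0.0122. Wt1 stayed uncalled (-0.06 to -0.02), as did Upk3b and Gpm6a, whose small values changed sign. When 1 library was left out, Upk3b ranged from -0.10 to 0.0446 (above 0 without WT replicate 1) and Gpm6a from -0.0244 to 0.12 (below 0 without WT replicate 1, Pbrm1 cKO replicate 1 or Pbrm1 cKO replicate 3). The summed CPM of the markers without Krt19, the most abundant, was 221 in WT and 169 in Pbrm1 cKO cells.

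Over all genes, 6723 were called, between 5532 (without WT replicate 2) and 7054 (without Pbrm1 cKO replicate 2) when 1 library was left out, and 5535 with DESeq2. The count of other mesothelial genes called higher, 5, ranged from 3 (without WT replicate 1) to 6. Alternatives for the lists were added after seeing the data. Among 41 other genes, 498 of 532 values kept their direction and call, 21 lost the call, 6 gained it and 7 changed sign. The sign changes were those of uncalled genes when 1 library was left out, Pkhd1l1 from -0.12 to 0.17 and Wtap from -0.0145 to 0.0537, and of Pkhd1l1 with limma-voom (-0.00979). The cause of these changes was not tested. The count of epithelial genes called higher, 9 of 13, went to 7 with DESeq2 (Ovgp1, adjusted p = 0.0638, and Wnt7a, 0.0555). It also depended on single libraries, from 7 without WT replicate 3 to 10 without Pbrm1 cKO replicate 2. Ovgp1 lost its call under 5 of the 13 alternatives and Wnt7a under 2.

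Same-numbered libraries had correlations of deviations of -0.02, 0.04 and 0.09, so the numbers were not treated as pairs. With the replicate number as a block, 6908 genes were called, 6617 of them shared, and the log2 fold changes of the markers ranged as above. Not every library correlated best with its own number.

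Depth limits the statements on Upk3bl, Upk1a, Mslnl, Lgr5, Muc16, Lrrn1, Lrrn2, Tbx18, Osr1 and Wt1os, which rest on few counts. With 3 libraries a group, pair ratios could not reach 0.05.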
